A study of Mus musculus with 8 samples.

Results

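Serpins are proteins that share 1 fold, and most of them trap a target serine protease by offering it an exposed loop. The liver secretes many serpins of clade a into plasma, among them the alpha-1-antitrypsins, the antichymotrypsin relatives and carriers of thyroid hormone and glucocorticoid. Clade b serpins act mostly inside cells, where several guard against leaked granule proteases. A few family members inhibit nothing, such as the collagen chaperone Serpinh1.

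The livers came from 8 male KK-Ay mice, a strain with obesity and type 2 diabetes, aged 14 weeks. The control diet (CD) group of 4 mice ate AIN-93G for 8 weeks, and the PD group of 4 mice ate the same diet with 1 g/kg of persimmon peel (PP) extract. Each array held liver RNA from 1 mouse, and the study took livers of mice whose plasma ketone bodies lay near their group's mean, so the spread between all mice fed may be larger than that seen here. All values are log2 expression indices, the array's signal for a probe set (a group of short probes to 1 transcript) on a log2 scale, and a difference is the PD mean minus the CD mean on that scale. In bulk liver, fewer cells of a type and less RNA per cell cannot be told apart.

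Serpins were taken as the probe sets with a single gene symbol that starts with Serpin, leaving out Serpinc1, Serpind1, Serpinf2 and Serping1, whose products control coagulation, fibrinolysis and complement. This gave 52 probe sets of 36 genes, out of 18193 genes and 45037 probe sets tested. Each gene was read from its probe set of highest mean. Clade a had 14 genes, clade b had 18, clade i had 2, and clades f and h had 1 each. No gene of clade e was analysed here. A further 3 probe sets carried several symbols, at least 1 of them starting with Serpin, and were left out. All 8 hepatocyte markers lay above the 90th percentile of all probe sets, against 3 of 9 Kupffer cell, 3 of 7 endothelial and 0 of 5 pancreatic acinar markers. The median of all probe sets did not single out hepatocytes, since 9 of 9 Kupffer cell and 4 of 5 acinar markers also passed it. The summed level of the hepatocyte markers was 16.96 to 17.06 in CD mice and 16.97 to 17.03 in PD mice. Arrays resembled each other closely, with correlations of 0.991 to 0.996 over all probe sets and medians of 7.09 to 7.16.

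Serpina7, the thyroxine-binding globulin that carries thyroid hormone in blood, was the single serpin gene called between the diets by its brightest probe set. Serpina1b and Serpina1c, both alpha-1-antitrypsins that inhibit neutrophil elastase, gave the brightest serpin signals. The start regions of these 3 genes are shown because each holds GTTAAT, the core letters bound by the liver factor HNF1 (RefSeq, GRCm38.p6, 250 bases before to 50 bases after the transcription start, 5′ to 3′ on the gene's minus strand). The capitals mark GTTAAT and, in Serpina7, also TATAAA of a TATA box. The windows lie at chrX:139085187-139085486 for Serpina7, chr12:103738140-103738439 for Serpina1b and chr12:103904901-103905200 for Serpina1c.
Serpina7: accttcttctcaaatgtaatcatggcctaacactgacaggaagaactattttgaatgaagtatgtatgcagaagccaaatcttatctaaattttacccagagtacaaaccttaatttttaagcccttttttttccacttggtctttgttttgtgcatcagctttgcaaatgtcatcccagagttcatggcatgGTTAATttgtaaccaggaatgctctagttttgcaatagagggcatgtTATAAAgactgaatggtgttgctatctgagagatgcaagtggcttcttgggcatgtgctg
Serpina1b: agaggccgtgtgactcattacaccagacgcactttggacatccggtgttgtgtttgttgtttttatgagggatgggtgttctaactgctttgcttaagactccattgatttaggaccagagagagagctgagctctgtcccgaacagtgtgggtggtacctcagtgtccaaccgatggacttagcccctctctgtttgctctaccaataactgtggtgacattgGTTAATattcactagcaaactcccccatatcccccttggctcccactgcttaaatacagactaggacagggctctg
Serpina1c: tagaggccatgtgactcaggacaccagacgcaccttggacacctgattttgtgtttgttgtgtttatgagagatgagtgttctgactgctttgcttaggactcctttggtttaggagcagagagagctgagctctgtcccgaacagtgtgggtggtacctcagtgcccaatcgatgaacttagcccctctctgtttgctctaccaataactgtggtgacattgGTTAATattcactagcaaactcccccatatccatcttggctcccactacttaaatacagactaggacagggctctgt

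The letters GTTAAT began 57 bases before the start in Serpina7, 26 in Serpina1b and 27 in Serpina1c. TATAAA of Serpina7 began 10 bases before that start. Serpina7 had a second annotated start, not shown, with GTTAAT 74 and TATAAA 27 bases before it. Searched on both strands, GTTAAT stood in 7.10% of 32851 promoter windows of this length. Of the 36 serpin genes 31 had a window. GTTAAT stood in 3 of 7 serpins whose level exceeded the 90th percentile and in 2 of 24 others. The 3 were the genes shown above. Serpina7 passed the 90th percentile (9.36) by its mean over 8 mice, with a CD mean of 9.003 and a PD mean of 9.79. The windows of Serpina1b and Serpina1c are much alike, as given below, so the 3 are not independent. The Stat-type element TTCNNNGAA stood in 1 of the 7 and 5 of the 24, against 8.30% of all windows, and TATAAA in 1 and 7, against 13.6%. A match of letters describes the window and not a bound site. The Serpina1b and Serpina1c windows were identical at 91.4% of aligned positions, and the same held for 91.2% between Serpina1a and Serpina1c and for 49.6% between Serpina1b and Serpina1f. The Serpina1b probe set is of the kind (_x_at) that can also detect related transcripts, so its signal may include other alpha-1-antitrypsin copies, and the split of signal between these copies is uncertain.

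Clade a held most of the bright genes, as the plot of 36 serpin genes in each mouse shows, though the clades overlapped, with levels of 6.26 to 14.55 in clade a and 5.48 to 8.59 in clade b. A percentile places a probe set's mean among all probe sets, and since signal also depends on the probes it does not order mRNA amounts between genes. In clade a 9 of 14 genes lay above the 90th percentile (log2 level 9.36), with a median level of 11.44, whereas in clade b 0 of 18 genes did, with a median level of 6.25. Serpina7 was among the 9 by its mean over 8 mice (9.40), while its CD mean of 9.003 lay below 9.36. Of clade b, 7 genes lay above the median of all probe sets (7.13). Outside clade a, Serpinf1, the anti-angiogenic factor PEDF, was the single gene above the 90th percentile. It had a CD mean of 12.73 ± 0.07 (SD, n = 4) and a PD mean of 12.72 ± 0.08 (SD, n = 4). In all, 10 serpin genes lay above the 90th percentile, 10 between it and the median and 16 at or below the median.

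**Figure D1:**
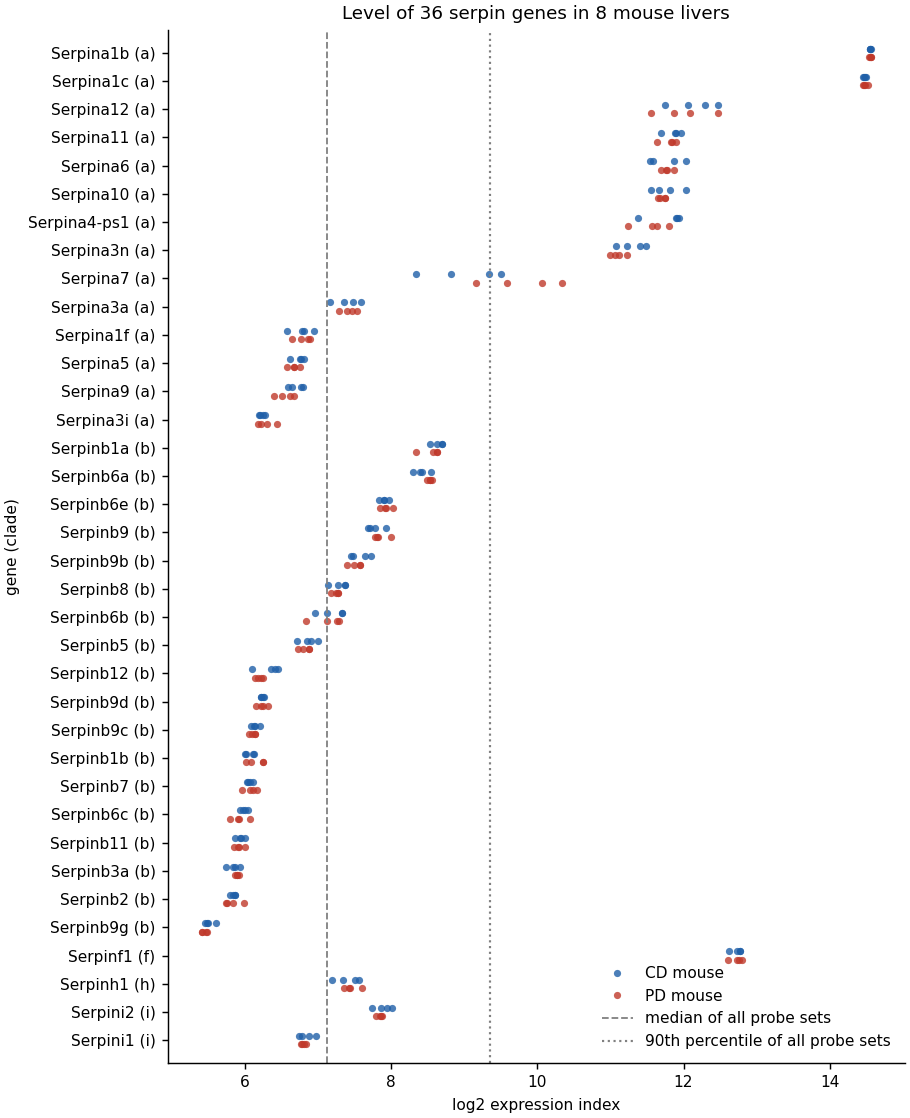
Log2 expression index (horizontal axis) of each serpin gene (rows, clade in brackets) in 4 CD and 4 PD mice, 1 point per mouse. Clade a holds 9 of the 10 genes right of the dotted line (90th percentile of all probe sets), and Serpina7 shows the widest scatter of all 36 genes.

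Of 28 genes in the chromosome 12 cluster of clade a, 13 were measured, and among these bright genes lie beside dim ones. Along the chromosome 12 cluster, in RefSeq gene order, Serpina10, Serpina6, Serpina1b, Serpina1c, Serpina11, Serpina12, Serpina4-ps1 and Serpina3n all lay at or above the 97.2 percentile. Between them, Serpina1f lay at the 34.7 percentile, Serpina9 at 27.4, Serpina5 at 31.0, Serpina3a at 60.1 and Serpina3i at 11.8. Serpina9 is known from B cells of germinal centres and Serpina5, the protein C inhibitor, is made mainly outside the liver in mice. Serpina7, alone on chromosome X, lay at 90.2.

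**Figure D2:**
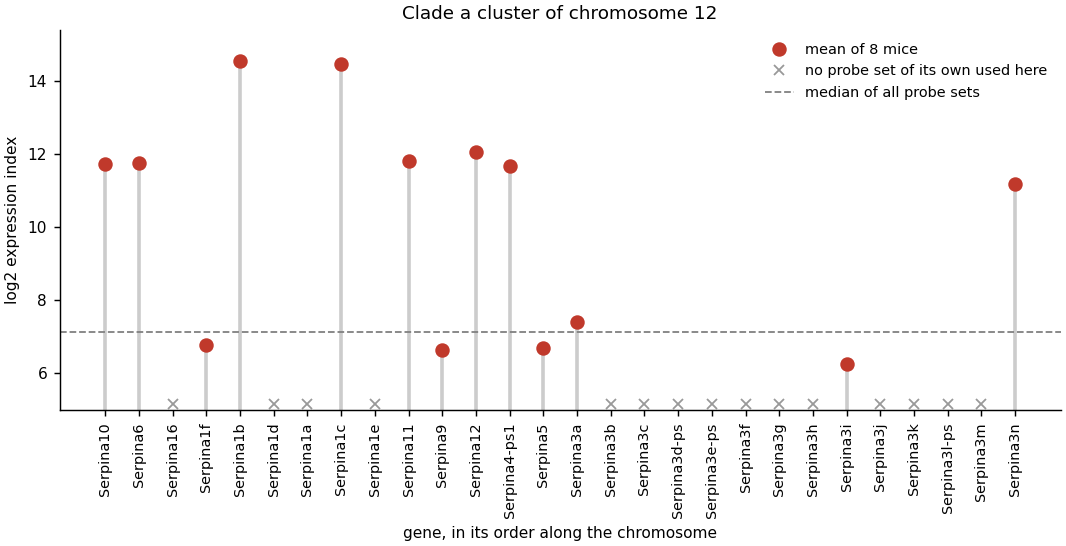
Mean log2 expression index over 8 mice (vertical axis, starting at 5) for clade a genes in their order along chromosome 12, with crosses for genes that had no probe set of their own here. Genes at 11 to 15 stand beside genes under the dashed median of all probe sets.

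Of the thyroid and glucocorticoid carriers, Serpina7 rose. Its level was 8.34, 8.82, 9.51 and 9.34 in CD replicates 1 to 4 and 9.17, 10.34, 9.59 and 10.06 in PD replicates 1 to 4. Of the PD mice 3 exceeded every CD mouse, while PD replicate 1 lay within the CD range, so the groups overlapped. The CD mean was 9.003 ± 0.53 (SD, n = 4) and the PD mean 9.79 ± 0.52 (SD, n = 4), a difference of 0.79 (SE 0.28) or 1.72-fold. The rank product, which was the study's test and ranks fold changes in each of 16 pairings of arrays from the opposite diets, called it up at an FDR of 0.0005. The FDR threshold was 0.1, and across the array this test called 0.218% of probe sets up and 0.258% down. Set against the spread between mice, limma gave an unadjusted p of 0.018 and an adjusted p of 0.998 over all probe sets, and a two-sided exact permutation test over the 70 splits of 8 mice gave p = 0.11, where 0.029 is the smallest possible. Without PD replicate 2 the difference was 0.60 at an FDR of 0.055, and without CD replicate 1 it was 0.56 at an FDR of 0.010. It was called in all 8 runs that left out 1 mouse.

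Serpina6, the corticosteroid-binding globulin, was not called. Its values were 11.58, 11.87, 11.54 and 12.04 in CD replicates 1 to 4 and 11.76, 11.77, 11.69 and 11.87 in PD replicates 1 to 4. The PD mice all fell inside the CD range, and the difference was 0.02 (SE 0.10). Ttr, transthyretin, the other plasma carrier of thyroid hormone, differed by -0.00028 (SE 0.04).

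**Figure D3:**
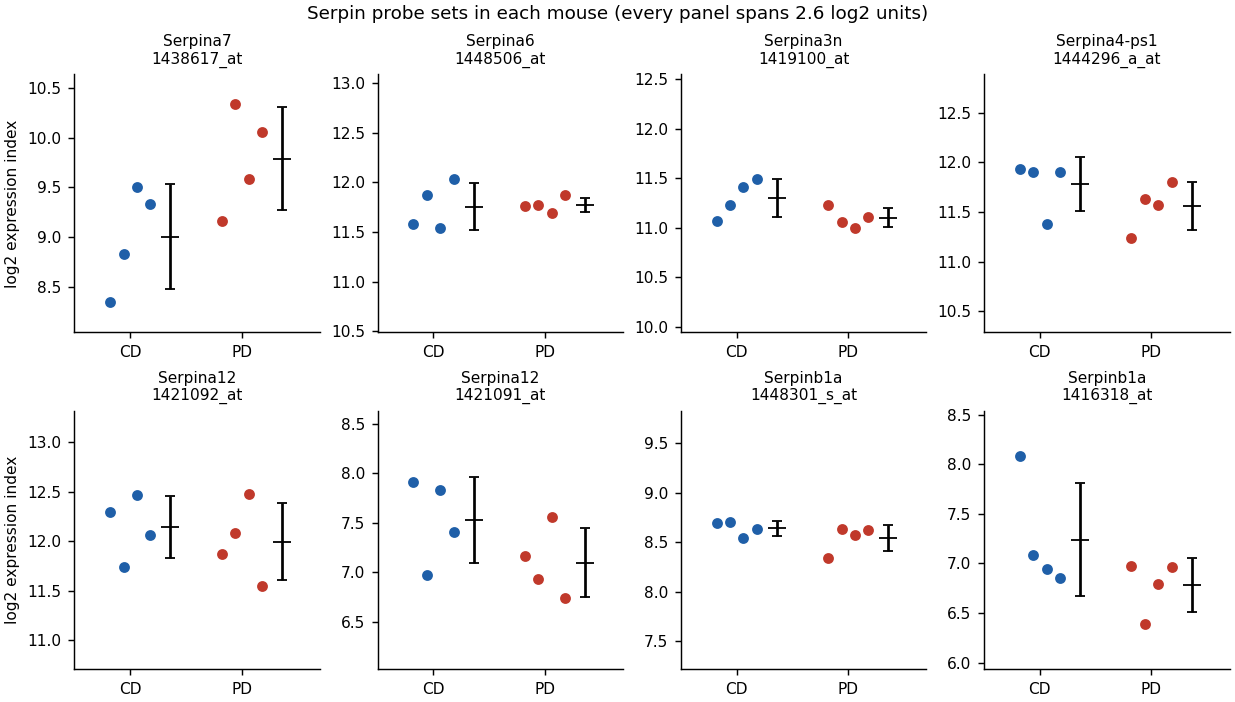
Log2 expression index (vertical axis, each panel spanning 2.6 log2 units) of 8 serpin probe sets in 4 CD and 4 PD mice, in replicate order from left to right, with group mean ± SD beside the points. Serpina7 has 3 PD mice above all CD mice, and the lower probe sets of Serpina12 and Serpinb1a overlap between diets.

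Across the family the diet left small differences. Of 36 genes, 1 was called up (2.78%) and 0 were called down by the rank product, beside 52 up and 65 down of 18193 genes. Limma called 0 at an adjusted p under 0.1, the same as for the whole array (0%). At an unadjusted limma p under 0.05 stood 2 genes, Serpina7 and Serpina3n, which is 5.56% of members. Over the array, 772 of 18193 genes and 3.65% of all probe sets did. The serpin count was 0 with the methods' t-test and 1 with median-centred arrays or with dim probe sets removed. It was 0 without PD replicate 2, 1 without CD replicate 4 or PD replicate 4, and 2 or 3 without any other mouse. For 0 genes did the groups fail to overlap, against 2.08% of all probe sets, with no share taken over genes. The absolute difference was under 0.1 for 29 genes. The median difference was -0.02 with 14 genes higher and 22 lower in PD, beside -0.0056 over all 18193 genes.

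**Figure D4:**
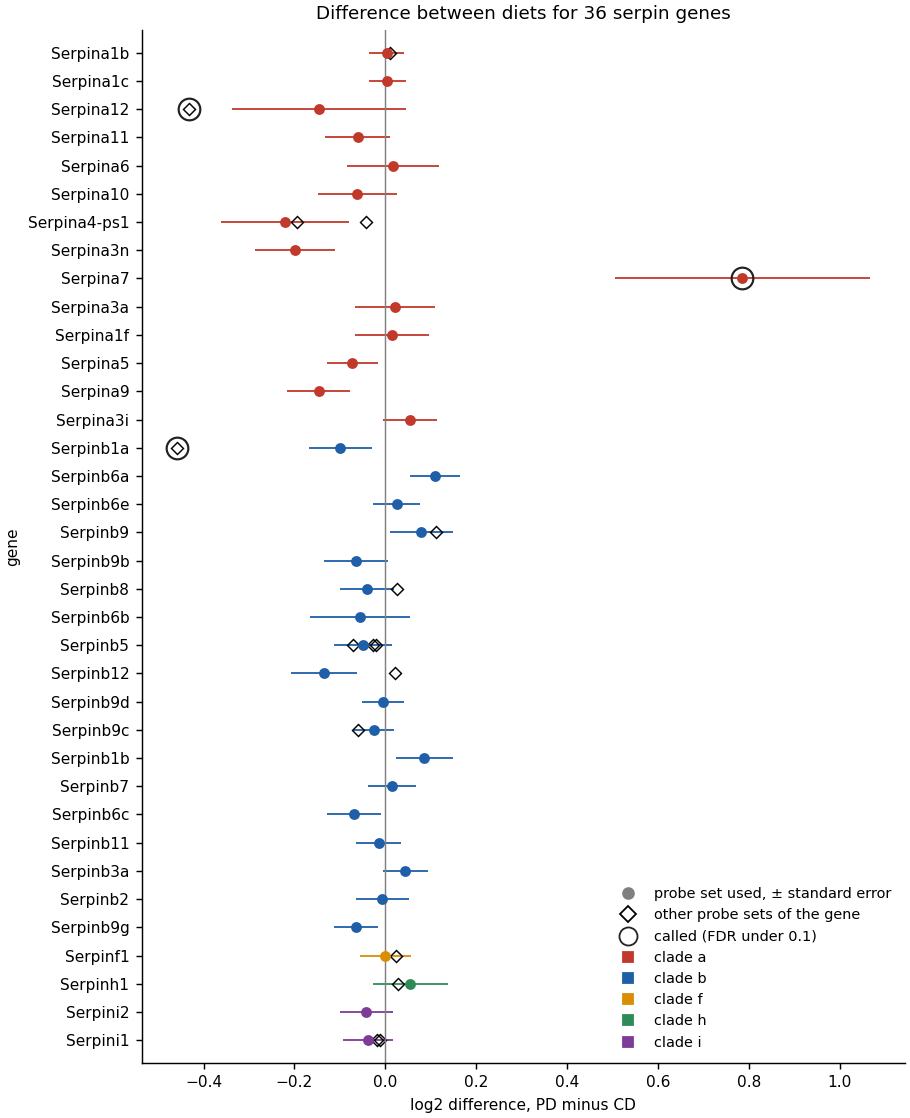
Log2 difference, PD minus CD (horizontal axis), of each serpin gene with its limma standard error, coloured by clade, with open diamonds for the gene's other probe sets and rings for those called at an FDR under 0.1. Serpina7 lies at 0.79, the ringed diamonds of Serpina12 and Serpinb1a lie at -0.43 and -0.46, and most other points fall within 0.1 of 0.

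Serpina12, or vaspin, is a secreted serpin known for insulin-sensitising activity, and its probe sets gave different calls. The brighter one (1421092_at) read 12.30, 11.74, 12.46 and 12.06 in CD and 11.87, 12.08, 12.48 and 11.55 in PD, replicates 1 to 4. The CD range lay inside the PD range, and the difference of -0.15 (SE 0.19) was not called. The dimmer one (1421091_at) read 7.91, 6.97, 7.83 and 7.41 in CD and 7.16, 6.93, 7.55 and 6.74 in PD. CD replicates 1 and 3 were highest and PD replicates 2 and 4 lowest, with overlap between diets. It fell by 0.43 (SE 0.21) at an FDR of 0.036, with an exact permutation p of 0.17. That call was lost without CD replicate 1 (difference -0.31, FDR 0.415), CD replicate 3 (-0.33, FDR 0.357) or PD replicate 4 (-0.31, FDR 0.124). On both probe sets PD replicate 3 was the highest PD mouse and PD replicate 4 the lowest.

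Serpinb1a, an intracellular inhibitor of neutrophil elastase and related granule proteases, showed a similar split between probe sets. The brighter one (1448301_s_at) read 8.70, 8.70, 8.54 and 8.64 in CD and 8.35, 8.63, 8.57 and 8.63 in PD, a difference of -0.10 (SE 0.07). The dimmer one (1416318_at) read 8.08, 7.08, 6.94 and 6.85 in CD and 6.98, 6.39, 6.79 and 6.97 in PD. CD replicate 1 stood above all 7 other mice, which ranged from 6.39 to 7.08. It was called down at -0.46 (SE 0.24) with an FDR of 0.086. The call was lost without CD replicate 1 (-0.18, FDR 0.985), CD replicate 2 (-0.51, FDR 0.251), CD replicate 3 (-0.56, FDR 0.152) or PD replicate 2 (-0.33, FDR 0.361), and exact permutation gave p = 0.20. Both called-down probe sets were the dimmer of their gene, so 0 genes counted as called down. Leaving out _s_at, _x_at and _a_at probe sets removes the brighter Serpinb1a probe set, and in that setting 1 serpin gene was called down. The study listed Serpinb1 and Serpine2 among genes changed by the extract, neither of them marked as upregulated. Serpine2 was not analysed here.

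The antichymotrypsin relative Serpina3n, an acute-phase protein, read 11.07, 11.23, 11.41 and 11.49 in CD replicates 1 to 4 and 11.23, 11.06, 10.9997 and 11.11 in PD replicates 1 to 4. CD replicates 3 and 4 were the highest, and the highest PD mouse, replicate 1, lay within the CD range. The difference of -0.20 (SE 0.09) had an unadjusted limma p of 0.046, an adjusted p of 0.998 and an FDR of 0.492, and without CD replicate 4 it was -0.14. That mouse also stood apart in acute-phase genes, with Saa1 at 14.3 against 10.2 to 12.1 in the 7 other mice and Lcn2 at 12.4 against 7.57 to 9.95. The part of this in the serpin result was not tested. Of the 10 serpins above the 90th percentile, CD replicate 4 had the highest value for 4 (Serpina3n, Serpina6, Serpina10 and Serpina11). The other measured members of this cluster were Serpina3a (0.02) and Serpina3i (0.05), neither of them called.

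All 3 alpha-1-antitrypsin genes measured differed by under 0.02, namely Serpina1b (0.0027), Serpina1c (0.0044) and Serpina1f (0.02). The first of these ranged from 14.54 to 14.56 and the second from 14.45 to 14.52 over 8 mice. Both lay near the highest values on the arrays, which were 14.99 to 15.02. Whether signals so near the top still follow changes in RNA was not tested.

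The remaining clade a genes were all lower in PD (6 of 6 measured, 0 called), with differences of -0.22 to -0.06. Of these, Serpina5 and Serpina9 lay below the median level of all probe sets. Serpina4-ps1, a transcribed pseudogene of kallistatin, read 11.94, 11.90, 11.38 and 11.91 in CD and 11.24, 11.63, 11.56 and 11.80 in PD, replicates 1 to 4. CD replicate 3 stood below the other CD mice, and the difference of -0.22 (SE 0.14) became -0.35 without it. The second probe set of this gene gave -0.19 and the third -0.04. Serpina10, the protein Z-dependent inhibitor of factor Xa, and Serpina11 both differed by -0.06, Serpina5 by -0.07 and Serpina9 by -0.15 (SE 0.07).

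Among clade b genes, 0 were called and 0 had an unadjusted limma p under 0.05. Differences ran from -0.13 in Serpinb12 to 0.11 in Serpinb6a, and 6 genes were higher and 12 lower in PD. Serpinb6a, an inhibitor of cathepsin G, read 8.42, 8.31, 8.55 and 8.40 in CD and 8.56, 8.54, 8.49 and 8.54 in PD. Serpinb9, the inhibitor of granzyme B, differed by 0.08 and by 0.11 on its second probe set. Serpinb2, an inhibitor of urokinase, lay at the 2.29 percentile of level and differed by -0.0072. The chromosome 13 members had a median level of 7.16 and those on chromosome 1 of 6.07. In the single-gene clades, the collagen chaperone Serpinh1 differed by 0.05 (SE 0.08) and Serpinf1 by -0.00025 (SE 0.06). The clade i genes Serpini1, or neuroserpin, and Serpini2 both differed by -0.04.

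Mice on the same diet spread more widely in clade a than in clade b genes, by their medians. The within-diet SD (pooled over both diets) had a median of 0.14 in clade a and 0.08 in clade b. Against genes within 0.5 log2 of the same level, 8 of 14 clade a genes and 3 of 18 clade b genes had an SD above the 80th percentile. The 5 serpins of largest SD were Serpina7 (0.52), Serpina12 (0.35), Serpina4-ps1 (0.25), Serpinb6b (0.19) and Serpina6 (0.18). Serpina7 had a larger SD than 99.4% of the 1972 genes of like level and Serpina12 than 97.8% of 357. Serpina1b stood at the other end with an SD of 0.0092, and 0 of 18193 genes had a lower one. Its signal lay near the top of the arrays, where SDs were low, with a median of 0.04 over the 18 genes of like level. No test of these differences between clades was made, because their genes share the same 8 mice.

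**Figure D5:**
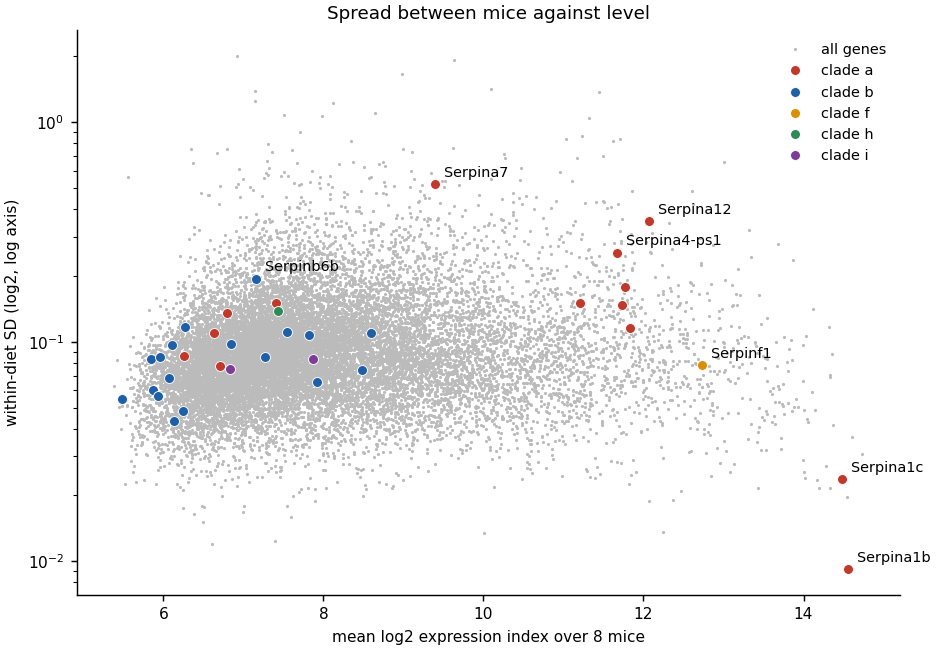
Within-diet SD (vertical log axis, log2 units) against mean log2 expression index over 8 mice (horizontal axis) for 18193 genes in grey and serpin genes by clade. Serpina7 and Serpina12 lie in the upper edge of the cloud at 0.52 and 0.35, and Serpina1b lies below every other gene at 0.0092.

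The genes that serpins act with moved as follows. Over all 18193 genes, 8452 were higher and 9741 lower in PD. The rank product called 52 of them up and 65 down, and 772 had an unadjusted limma p under 0.05. Of 31 target proteases 8 were higher and 23 lower in PD and 0 were called (limma unadjusted p under 0.05 for 1). Elane, neutrophil elastase, differed by 0.05, Plat, Plau and Plg of the plasmin system by -0.03, -0.09 and -0.0055. The 1 protease past that unadjusted p was Prtn3, proteinase 3 of neutrophil granules, named after its values were seen. It read 7.75 to 7.86 in CD and 7.48 to 7.71 in PD without overlap, a difference of -0.17 (SE 0.06, limma p 0.017, adjusted p 0.998). Of 11 serpin receptors and clearance genes measured 2 were higher and 9 lower in PD, 0 were called and 2 had an unadjusted limma p under 0.05. These 2, named after their values were seen, were the sorting receptor Sort1 (-0.25, SE 0.09) and Edem1 (-0.15, SE 0.05), which acts in disposal of misfolded glycoproteins, both with an adjusted limma p of 0.998. The uptake receptor Lrp1 differed by -0.12 (SE 0.07). Of 12 partners of single serpins, Col3a1, a collagen folded with Serpinh1, was called up by 0.37 (FDR 0.021), a call lost without CD replicate 2 (0.25) or without PD replicate 2 (0.33), 3 (0.37) or 4 (0.36), and Col1a1, below the array median, differed by -0.02. Col1a2, also named after its values were seen, differed by 0.17 (SE 0.11) and was not called.

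All 20 acute-phase genes were lower in PD, with a median of -0.17, where 9741 of 18193 genes were lower over the array. Of the 20, 3 were called down, beside 65 of all 18193 genes: Saa1 by -0.87, Saa2 by -1.14 and Lcn2 by -0.63. All 3 calls were lost without CD replicate 4, where the differences were -0.06, 0.12 and 0.41 and the list's median -0.04, and also without CD replicate 3. The Lcn2 call was lost without PD replicate 3 or 4 as well. Saa4, the constitutive form, differed by -0.32 and was not called (FDR 0.105). Of the 20, 2 had an unadjusted limma p under 0.05, both with an adjusted p of 0.998. These were Saa4 (limma p 0.0073) and Lbp (-0.22, limma p 0.029), the latter not called and named after its values were seen. The highest mouse was CD replicate 3 for Saa4 (13.13) and CD replicate 1 for Lbp (11.33), not CD replicate 4. The study named Saa4 among the genes downregulated in PD mice. Of 17 regulators of hepatic serpin transcription measured, Il6ra (-0.23), a receptor chain for interleukin 6, and Socs3 (-0.21), a brake on its signal, were called down. The Il6ra call held in 3 of 8 runs that left out 1 mouse and the Socs3 call in 2. Over those 8 runs the Il6ra difference ran from -0.57 without CD replicate 4 to -0.04 without PD replicate 4, and that of Socs3 from -0.62 without PD replicate 1 to 0.10 without CD replicate 3. Of 9 male-biased growth hormone targets measured, Elovl3, a fatty acid elongase, was called down at -0.40, in 3 of 8 such runs, and its difference ran from -0.60 without PD replicate 1 to -0.23 without PD replicate 2.

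Marker sums overlapped between diets in Kupffer cells (12.06 to 12.66 in CD, 12.39 to 12.51 in PD) and in neutrophils (10.21 to 10.28 and 10.14 to 10.23). They also overlapped in stellate, endothelial, mast, T and NK, bile duct, acinar and fat cell lists. The neutrophil marker S100a9, named after its values were seen, differed by -0.27 (FDR 0.173). Of the 6 neutrophil markers measured 1 was higher and 5 lower in PD, with a median of -0.08 and 0 called. The hepatocyte gene Tat was called down at -0.44 (FDR 0.031), in 4 of 8 runs that left out 1 mouse. Of the fat cell markers 0 of 3 measured lay above the array median, whereas 4 of 5 acinar and 3 of 6 T and NK cell markers did.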

How the data were processed

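Liver RNA was hybridised to Affymetrix mouse whole-genome GeneChip arrays, 1 array per mouse. The deposited values are log2 model-based expression indices that the authors computed with R 2.7.2 and Bioconductor, with the scaling between arrays not given in the sources used here. The precision is set by 4 arrays per diet, and no filter on low values was applied. A further 64 control probe sets did not enter, and of the rest 34945 carried 1 symbol in the platform annotation, 932 several and 9160 none.

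Rank products over 16 array pairs used 1000 permutations of values within arrays, as in the study, called at an FDR under 0.1. Differences and standard errors came from limma 3.58.1 in R 4.3.3 with Benjamini-Hochberg adjustment over all probe sets, and exact permutation tests from Python 3.11.15 with numpy 2.4.6. Promoter windows were aligned with Biopython 1.88. Scripts were tested on simulated data. Groups came from the diet labels.

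The serpin members, gene lists and tests were chosen with earlier results of these data known. Named genes were those called, those of largest within-diet SD, the highest in each clade, the members of role groups, serpins listed by the study (Serpine2 was not analysed here), and the called or preset genes of each list. Replicate numbers did not pair the mice. Alternatives tried were a stricter FDR, a replicate block, quantile and median scaling, a filter on dim probe sets, 16 added before log2, other choices of probe set, limma with trend or array weights, the methods' t-test, and leaving out each mouse.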

Additional observations from a re-analysis of the deposited data

Results flagged for a closer look

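In 104 groups of 4 mice (each serpin probe set in each diet), 3 held a mouse far from the other mice of its group by Dixon's criterion, which chance alone meets in about 1 of 20 groups. Serpina4-ps1 was low in CD replicate 3 on both of its overlapping probe sets, at 11.3759 on 1444296_a_at against 11.90 to 11.94 in the other CD mice, and at 11.2232 on 1448092_x_at against 11.73 to 11.79. Serpina1b on 1418282_x_at read 14.5601 in CD replicate 2 against 14.54 to 14.55 in the other CD mice, within a range of 0.02.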

How the results depend on the processing

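Serpina7 was called up under all 7 other settings (difference 0.77 to 0.80, FDR at most 0.0024) and without any 1 mouse (0.56 to 0.99, FDR at most 0.055). Over all settings, limma called 0 serpin genes at an adjusted p under 0.1, and serpins at an unadjusted p under 0.05 numbered 0 with the methods' t-test, 1 with median-centred arrays or with dim probe sets removed, and 0 to 3 leaving out 1 mouse. At an FDR under 0.05 the calls down numbered 53 probe sets on the array, 1 of them a serpin (the Serpinb1a call at -0.46 was lost), and 2 genes of the context lists. With the filter on dim probe sets, 67 probe sets were called down, 1 of them a serpin. Without _s_at, _x_at and _a_at probe sets, 58 probe sets were called up, 1 serpin gene down, and 0 genes up and 3 down in the context lists. The serpin median was then -0.027, that of the regulators -0.060 and that of the growth hormone targets -0.14. The serpin median was -0.011 with median-centred arrays. With probe sets averaged per gene it was also -0.011, and that of the receptors was -0.0038. The replicate numbers did not pair the mice (correlations of same-numbered deviations -0.06 to -0.00031, 0 of 4 best with their own number). With a replicate block, 2 genes of the context lists were called up in place of 1.

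Leaving out 1 mouse at a time, calls up ranged from 27 to 190 probe sets and calls down from 16 to 207, serpin probe sets down from 0 to 2, and context genes from 0 to 3 up and 0 to 8 down. The medians ranged from -0.035 to -0.0039 in serpins, from -0.075 to -0.017 in growth hormone targets and from -0.054 to -0.021 in receptors. With 4 arrays a diet, the median within-diet SD of 0.08 over all probe sets and of 0.40 over called ones limits what can be told apart.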
